A study of Mus musculus with 37 samples.

Results

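Matrix metalloproteinases (Mmp), their tissue inhibitors (Timp) and the related ADAM and ADAMTS proteases were followed through 9 components of the developing mouse kidney. All genes on the array whose symbol is Mmp, Timp, Adam or Adamts followed directly by a number were taken. That gave 65 of the 18193 genes with a probe set of their own: 18 Mmp, 4 Timp, 28 Adam and 15 Adamts genes, with 116 probe sets. A probe set was used where its signal passed the pooled median of all values (log2 signal 7.89) in 2 or more arrays. Of the 65 genes, 46 passed, namely 11 Mmp, 4 Timp, 17 Adam and 14 Adamts genes, and they were tested among 15709 genes. Another 5 probe sets carry a family member's name together with a second gene and were not used.

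All animals were wild-type mice of the outbred CD-1 strain without treatment. At E15.5, in days of embryonic age, there were 4 arrays of the medullary interstitium, the loose stroma between the medullary tubules, 4 of the renal corpuscle, the developing filter, 2 of the proximal tubule, 4 of the S-shaped body, a late nephron precursor, 3 of the ureteric tip, the branching end of the collecting system, and 3 of the medullary collecting duct. The renal vesicle, the first epithelial nephron stage, gave 5 arrays at E12.5. The ureteric bud, which branches into the collecting system, gave 4 arrays and the metanephric mesenchyme, which gives rise to nephrons and stroma, gave 8 arrays at E11.5. Per the labels, each array holds a pool of about 50 sections from 5 kidneys, with RNA amplified in 2 rounds. The protocol text names laser capture for nearly all samples, while the titles of all 4 ureteric bud arrays and of mesenchyme replicates 5 to 8 name dissection or collagenase. The labels do not say whether pools came from separate animals, so that p-values measure the spread between pooled samples. In bulk tissue, fewer cells of a type and less RNA per cell cannot be told apart.

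These enzymes cut the proteins around cells. Mmp enzymes are zinc proteases made as inactive precursors that degrade collagens, gelatin and laminins, and Timp proteins block their active site. ADAM proteases sit in the cell membrane and release the outer parts of receptors and growth factors, although several members, such as Adam11, Adam22 and Adam23, have lost the catalytic site and act as adhesion molecules. ADAMTS proteases are secreted and bind the matrix: Adamts1, Adamts4, Adamts5, Adamts9, Adamts15 and Adamts20 cut proteoglycans such as aggrecan or versican, and Adamts3 processes procollagen. In the embryonic kidney the matrix between bud and mesenchyme is remodelled as the bud branches and as the nephron epithelium lays down its own basement membrane.

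Promoter windows from RefSeq (GRCm38.p6, 250 bases before to 50 bases after an annotated start) could be matched by Entrez gene identifier to 37 of the 65 genes, with 42 windows in all. The 6 windows below are shown because Mmp13, Mmp3 and Mmp10 were above the pooled median in 1, 0 and 3 of the 37 arrays, while Mmp14, Timp1 and Timp3 were above it in all 37. Capitals mark 3 motifs searched on both strands. The AP-1 motif was searched as TGANTCA. For the TATA box the searched letters were TATAAA. The GC box was taken as GGGCGG. No match of one of these motifs shared letters with a match of another in the windows of the family.

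Mmp13 promoter, GRCm38.p6 chr9:7272264-7272563, plus strand: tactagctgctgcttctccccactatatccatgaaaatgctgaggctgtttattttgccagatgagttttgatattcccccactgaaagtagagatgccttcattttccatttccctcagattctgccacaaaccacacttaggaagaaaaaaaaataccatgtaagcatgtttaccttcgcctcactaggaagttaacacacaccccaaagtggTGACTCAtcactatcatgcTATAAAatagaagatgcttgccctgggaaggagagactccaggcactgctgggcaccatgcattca

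Mmp3 promoter, GRCm38.p6 chr9:7445572-7445871, plus strand: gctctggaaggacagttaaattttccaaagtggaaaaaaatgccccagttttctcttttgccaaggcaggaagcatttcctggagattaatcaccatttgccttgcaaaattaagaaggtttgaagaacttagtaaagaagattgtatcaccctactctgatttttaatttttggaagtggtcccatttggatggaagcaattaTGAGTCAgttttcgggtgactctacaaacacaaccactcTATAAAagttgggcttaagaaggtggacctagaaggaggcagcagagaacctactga

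Mmp10 promoter, GRCm38.p6 chr9:7502092-7502391, plus strand: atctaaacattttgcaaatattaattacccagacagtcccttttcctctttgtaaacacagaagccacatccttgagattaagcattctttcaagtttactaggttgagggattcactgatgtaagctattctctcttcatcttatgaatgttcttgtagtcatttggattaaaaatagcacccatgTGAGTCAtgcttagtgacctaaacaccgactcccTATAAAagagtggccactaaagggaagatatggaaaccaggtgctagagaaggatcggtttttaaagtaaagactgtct

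Mmp14 promoter, GRCm38.p6 chr14:54431348-54431647, plus strand: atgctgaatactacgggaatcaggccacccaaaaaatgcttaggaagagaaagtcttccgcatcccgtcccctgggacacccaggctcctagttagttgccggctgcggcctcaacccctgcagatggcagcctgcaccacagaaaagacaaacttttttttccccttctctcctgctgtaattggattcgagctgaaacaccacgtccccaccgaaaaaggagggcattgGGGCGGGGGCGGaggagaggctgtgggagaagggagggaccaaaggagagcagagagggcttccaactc

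Timp1 promoter, GRCm38.p6 chrX:20869916-20870215, plus strand: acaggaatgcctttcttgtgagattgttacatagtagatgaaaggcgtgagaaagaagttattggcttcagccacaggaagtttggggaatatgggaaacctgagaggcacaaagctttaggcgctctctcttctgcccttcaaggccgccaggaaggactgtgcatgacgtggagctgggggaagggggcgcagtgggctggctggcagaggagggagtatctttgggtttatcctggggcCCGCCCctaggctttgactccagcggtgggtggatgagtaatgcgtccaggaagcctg

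Timp3 promoter, GRCm38.p6 chr10:86300162-86300461, plus strand: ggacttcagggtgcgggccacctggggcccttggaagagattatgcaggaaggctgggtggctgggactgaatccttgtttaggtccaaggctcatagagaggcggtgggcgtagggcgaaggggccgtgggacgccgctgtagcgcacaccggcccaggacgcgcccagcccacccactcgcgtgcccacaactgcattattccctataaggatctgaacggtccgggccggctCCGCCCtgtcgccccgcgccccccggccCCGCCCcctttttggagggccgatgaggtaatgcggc

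Mmp13 (a collagenase), Mmp3 and Mmp10 (stromelysins) belong to a cluster of 9 Mmp genes whose windows lie within chr9:7272264-7692390 of that build. All 9 genes of the cluster held TATAAA in a window, 8 held TGANTCA, Mmp8 being the exception, and none held GGGCGG. Of these 9 genes, 7 did not pass the filter on dim probe sets: Mmp1a, Mmp1b, Mmp3, Mmp8, Mmp12, Mmp13 and Mmp20. Mmp7 and Mmp10 passed, with signals above the pooled median in 6 and 3 of 37 arrays. The other 8 Mmp and Timp genes with a window all passed. None of them held TGANTCA or TATAAA, and 7 held GGGCGG, Timp4 being the exception. GC content was 37.7% to 52.0% in the 11 cluster windows and 53.3% to 80.0% in the 9 windows of the other genes. Among all 32851 windows of the genome, TGANTCA was found in 7.81%, TATAAA in 13.6% and GGGCGG in 35.7%. Over the 42 windows of all members the shares were 26.2%, 28.6% and 40.5%. This grouping was made after the values were seen, a match is a description of the letters only, and its part in the signal was not tested.

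**Figure D1:**
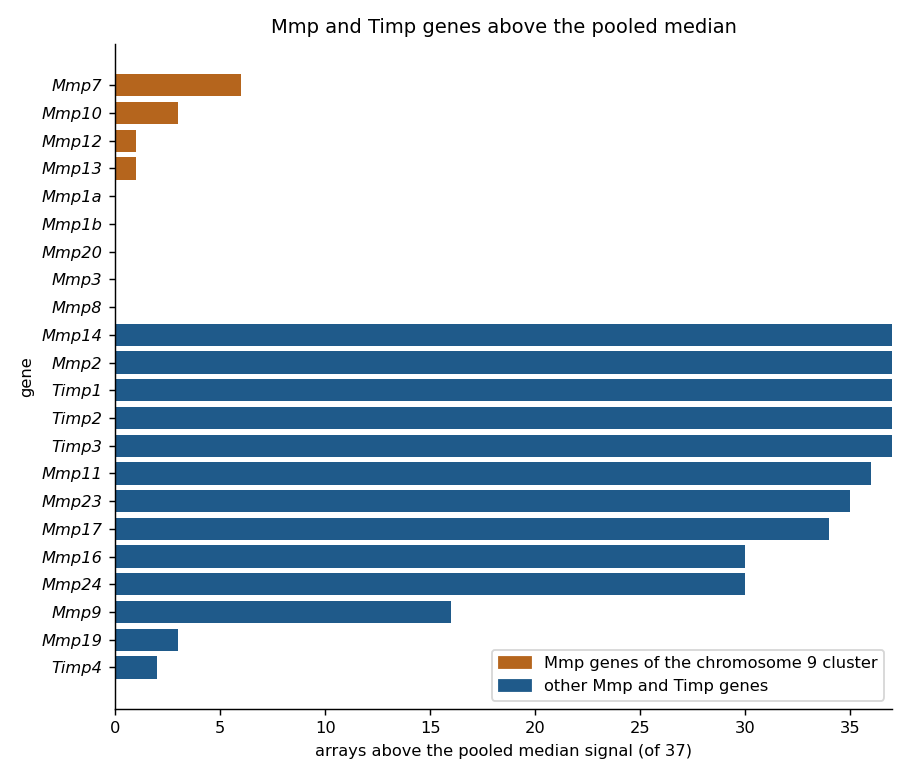
Number of arrays, of 37, in which the best probe set of each Mmp and Timp gene lay above the pooled median signal. Of the 9 genes in the chromosome 9 cluster none reached more than 6 arrays, while Mmp2, Mmp14, Timp1, Timp2 and Timp3 did so in all 37; probe sets differ in response, so the counts do not rank the genes' expression.

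Among the 19 genes that did not pass, the 11 Adam genes were Adam2, Adam3, Adam6a, Adam6b, Adam7, Adam18, Adam24, Adam25, Adam26a, Adam28 and Adam32, several of which are known from testis. Adamts19 was the only Adamts gene among them. Their signals peaked at 8.99 on the log2 scale, for Mmp13 in mesenchyme replicate 2, and Mmp13, Mmp12 and Adam2 were the only ones above the pooled median in an array, in 1 array each. Levels of these genes near background could not be compared. In every array 4 of 28 Adam, 3 of 15 Adamts, 2 of 18 Mmp and 3 of 4 Timp genes were above the pooled median.

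Some arrays stood apart from their labels. Nphs1, the nephrin gene of podocytes, read 12.27 in the array labelled as S-shaped body replicate 3, above the 7.64 to 7.69 of the other S-shaped bodies, and in the array labelled as renal corpuscle replicate 4 it was at 7.37, below the other corpuscles. The mean of 4 measured podocyte markers of 6 listed was 14.93 and 10.70 in these libraries, and the S-shaped library also had 14.01 for the interstitium markers, while the remaining S-shaped arrays had 10.75 to 11.08. The renal vesicle and S-shaped body marker lists averaged 13.08 and 12.70 in that corpuscle array, against 9.51 to 10.35 and 9.35 to 10.56 in the other corpuscles. In that S-shaped array they averaged 9.28 and 10.60, against 12.44 to 13.16 and 12.78 to 13.05 in the other S-shaped bodies. Both arrays were kept under their labels, and results that rest on them are given with and without them. The 6 interstitium markers averaged 14.02 to 14.52 in the medullary interstitium, and the 5 epithelial markers 13.82 to 13.95 in the ureteric tip and 13.87 to 14.51 in the ureteric bud, against 7.84 to 11.86 in the mesenchyme. Fos, an immediate early gene, was at 14.83 to 15.499 in the mesenchyme arrays titled dissection or collagenase and at 6.55 to 8.36 in the 3 titled LCM.

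Over the 9 components, 24 of the 46 genes varied (limma F test, adjusted p under 0.05). This is 52.2% against a background of 49.9% of all genes, a share close to that of all genes. By family, 10 of 14 Adamts, 6 of 11 Mmp, 2 of 4 Timp and 6 of 17 Adam genes varied. The median range between the highest and lowest component mean was 3.42 for Adamts genes and 1.82 for Adam genes on the log2 scale, and 1.79 for all genes. Of the 24, 7 had their highest mean in the metanephric mesenchyme, 5 in the medullary interstitium, 5 in the renal corpuscle, 3 in the proximal tubule, 2 in the renal vesicle and 2 in the ureteric bud. None peaked in the S-shaped body, the ureteric tip or the medullary collecting duct. The smallest p-values belonged to Timp3 (F = 13.9, adjusted p = 3.63e-07), Mmp23, a membrane-linked metalloproteinase (F = 10.7, adjusted p = 4.56e-06), and Adamts18 (F = 10.1, adjusted p = 7.45e-06).

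**Figure D2:**
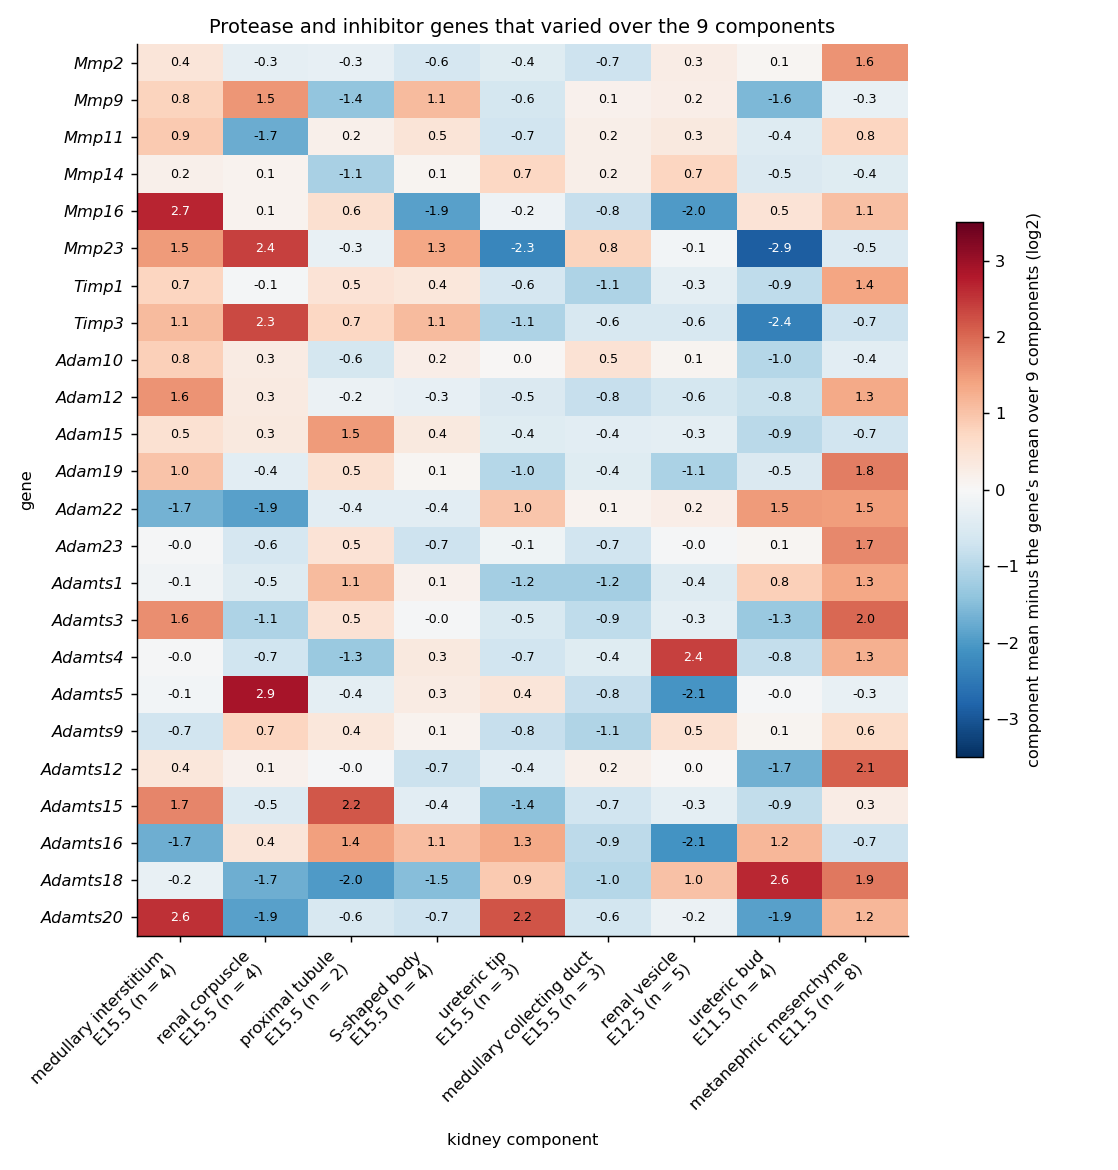
Mean log2 signal of each component minus the gene's mean over the 9 components, for the 24 genes that varied by the F test; columns are components with embryonic day and number of arrays, red is higher and blue lower. The mesenchyme column is red for Adamts12, Adamts3 and Adam19, and the corpuscle column for Adamts5, Mmp23 and Timp3.

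The inhibitors had different patterns. Timp3, which binds the matrix and also inhibits several ADAM and ADAMTS proteases, was highest in the renal corpuscle at 13.79 ± 0.51 (log2 signal, SD, n = 4), next in the S-shaped body at 12.57 ± 0.996 (n = 4), the medullary interstitium at 12.57 ± 0.26 (n = 4) and the proximal tubule at 12.19 ± 0.14 (n = 2). It was at 10.91 ± 0.82 in the renal vesicle (n = 5), 10.91 ± 0.51 in the medullary collecting duct (n = 3), 10.75 ± 1.10 in the mesenchyme (n = 8) and 10.40 ± 0.20 in the ureteric tip (n = 3), and lowest in the ureteric bud at 9.12 ± 0.66 (n = 4). The array ranges of neighbours in that order overlapped, except those of the medullary interstitium and the proximal tubule, of the proximal tubule and the renal vesicle, and of the ureteric tip and the ureteric bud. Timp1, a secreted inhibitor with a broad range of Mmp targets, was highest in the mesenchyme at 11.28 ± 0.37 (n = 8), followed by the medullary interstitium at 10.64 ± 0.51 (n = 4), and lowest in the medullary collecting duct at 8.81 ± 0.57 (n = 3). Timp2, which also takes part in activating Mmp2 at the cell surface, spanned only 1.04 between its highest mean, 13.62 ± 0.32 in the S-shaped body (n = 4), and its lowest, 12.58 ± 1.10 in the proximal tubule (n = 2), and did not pass the F test (adjusted p = 0.191). Timp4 was above the pooled median in 2 arrays (adjusted p = 0.213).

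**Figure D3:**
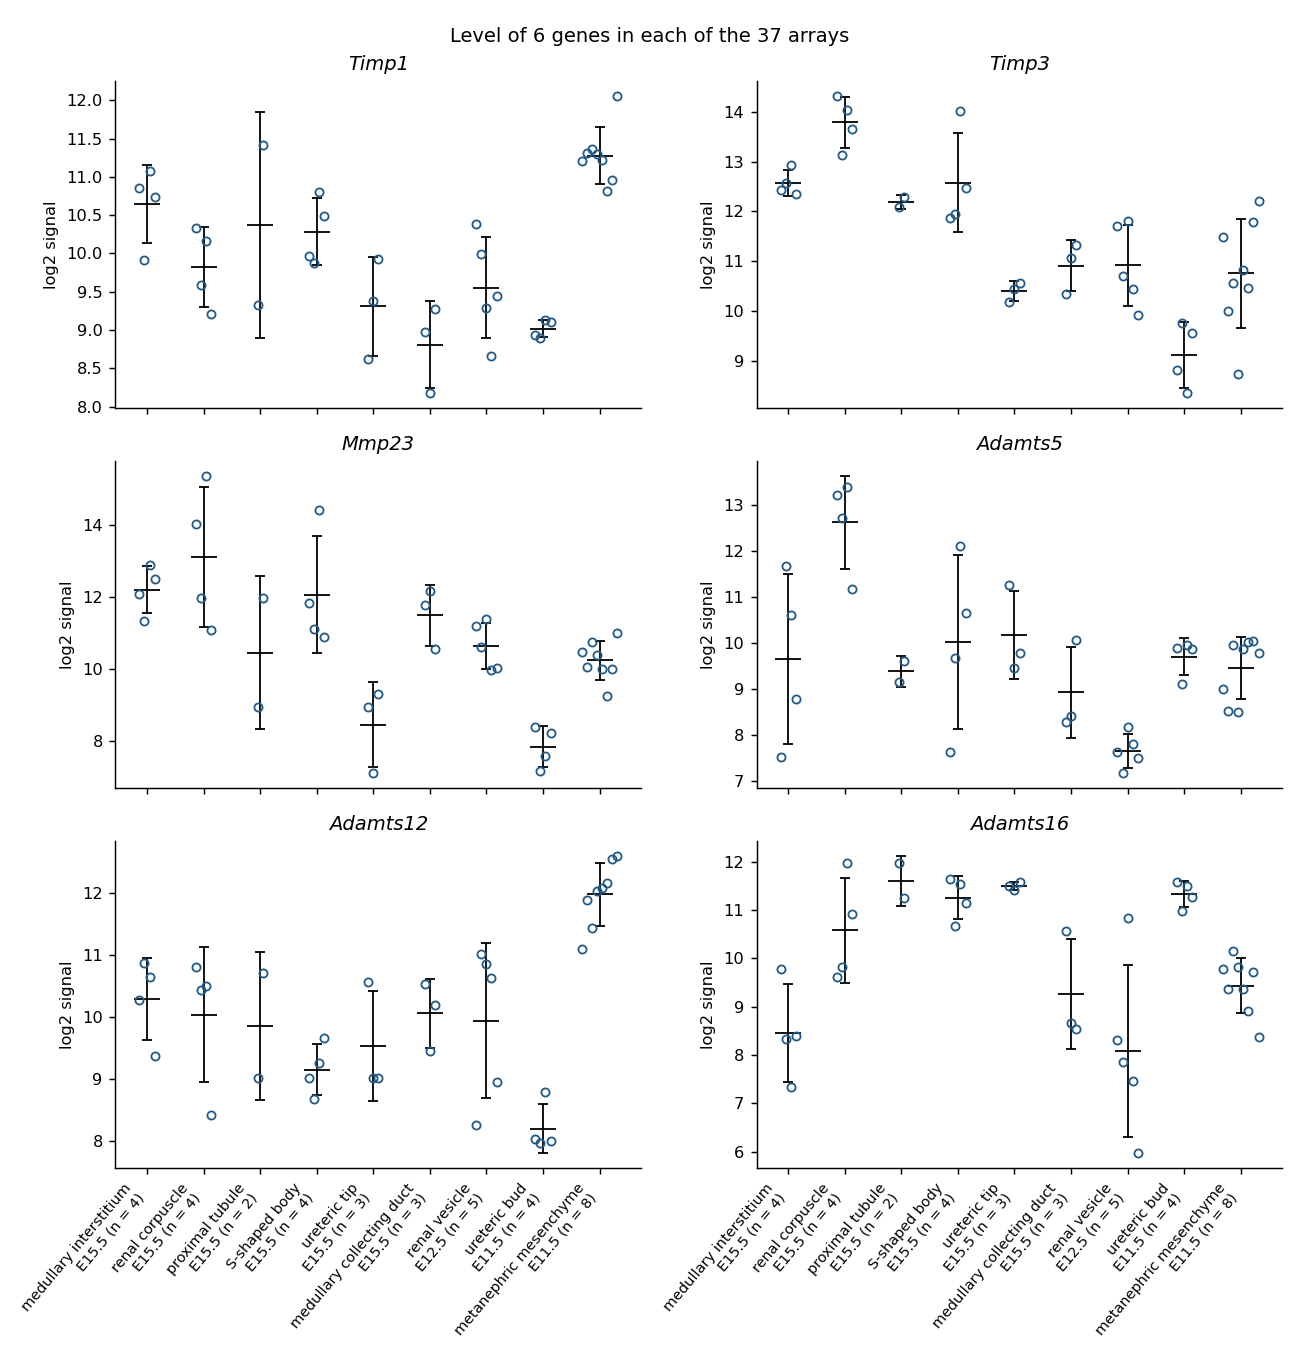
Log2 signal of 6 genes in each of the 37 arrays by component (circles are arrays, bars the component mean ± SD). Timp1 and Adamts12 are high in all 8 mesenchyme arrays and low in all 4 ureteric bud arrays, Timp3 and Adamts5 are highest in the renal corpuscle, and Mmp23 is low in the ureteric tip and bud.

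The first comparison set the ureteric bud against the mesenchyme into which it grows. Calls required an adjusted p under 0.05 together with a change of 1 or more on the log2 scale, up or down. Of the 46 genes, 11 fell in the bud (23.9%), against a background of 4.07% of all genes that fell, and 1 rose (2.17%, background 4.08%). The median log2 change was -0.40 over the 46 genes and 0.02 over all genes. The genes that fell include both proteases and the inhibitors Timp1 and Timp3.

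Timp1 was at 8.94, 8.90, 9.13 and 9.10 in the bud arrays, against 10.81 to 12.06 with a median of 11.26 in the mesenchyme arrays. All bud arrays lay below all mesenchyme arrays, and Timp1 fell by 2.26 (SE 0.37, adjusted p = 3.92e-05). Timp3 was at 8.81, 9.75, 8.34 and 9.56 in the bud, against 8.73 to 12.20 with a median of 10.69 in the mesenchyme. These ranges overlapped, since mesenchyme replicate 4 was as low as the bud, and Timp3 fell by 1.64 (SE 0.47, adjusted p = 0.0186). Mmp2, gelatinase A, was at 14.02, 13.38, 13.10 and 13.96 in the bud, against 14.57 to 15.53 with a median of 15.17 in the mesenchyme. The groups did not overlap, and Mmp2 fell by 1.505 (SE 0.36, adjusted p = 0.00392). Mmp23 was at 8.39, 7.17, 7.58 and 8.21 in the bud, against 9.24 to 11.01 with a median of 10.22 in the mesenchyme. It was lower in every bud array and fell by 2.40 (SE 0.63, adjusted p = 0.0105). Mmp11, Mmp14 and Mmp16 were not called, at -1.21, -0.08 and -0.58.

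Among the Adamts genes, Adamts12, a protease that cuts cartilage oligomeric matrix protein, was at 8.04, 7.97, 8.80 and 8.01 in the bud, against 11.10 to 12.60 with a median of 12.06 in the mesenchyme. The groups were well apart, and Adamts12 fell by 3.78 (SE 0.48, adjusted p = 6.98e-07), the largest change of the family here. Adamts3, a procollagen protease, was at 6.91, 7.12, 7.30 and 7.06 in the bud, against 9.02 to 11.42 with a median of 10.39 in the mesenchyme. It did not overlap either and fell by 3.32 (SE 0.69, adjusted p = 0.000943). Adamts20, a versican-cutting protease known from pigment cell migration, was at 8.40, 8.19, 8.86 and 8.39 in the bud, against 10.54 to 12.84 with a median of 11.29 in the mesenchyme, without overlap, and fell by 3.06 (SE 0.92, adjusted p = 0.0277). Adamts4, an aggrecanase, fell by 2.09 (SE 0.57, adjusted p = 0.0136), also without overlap. Adamts16, a protease expressed in kidney and gonad and studied in rats for blood pressure, was the gene that rose. It was at 11.57, 10.97, 11.49 and 11.27 in the bud, against 8.38 to 10.16 with a median of 9.54 in the mesenchyme. All bud arrays were higher than all mesenchyme arrays, and Adamts16 rose by 1.89 (SE 0.56, adjusted p = 0.0251). Its other measured probe set was at 0.22 (limma, adjusted p = 0.983). Adamts18 was not called at 0.77 (SE 0.65, adjusted p = 0.705), nor were Adamts1, Adamts5 and Adamts9.

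Among the ADAM genes, Adam19, a sheddase of neuregulins with a role in heart development, was at 8.62, 9.30, 9.33 and 8.56 in the bud, against 10.64 to 11.81 with a median of 11.29 in the mesenchyme. The ranges were apart, and Adam19 fell by 2.30 (SE 0.48, adjusted p = 0.000844). Adam23, an adhesion molecule, fell by 1.63 (SE 0.46, adjusted p = 0.0195) without overlap. Adam33, known for its link to asthma, fell by 1.44 (SE 0.46, adjusted p = 0.045), also without overlap. Adam33 was read near background, with means of 6.14 in the bud and 7.58 in the mesenchyme, both below the pooled median. Its signal was above that median in 10 of 37 arrays. Adam12 was lower in every bud array but missed the threshold, at -2.09 (SE 0.70, adjusted p = 0.0555). The general sheddases Adam10 and Adam17 were not called, at -0.61 and 0.40.

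The bud arrays all carry dissection or collagenase in their titles. Against the 4 mesenchyme arrays titled likewise, 9 of these genes were called: Adam33, Adamts20 and Mmp23 were not, at -1.51 (adjusted p = 0.111), -2.98 (adjusted p = 0.117) and -2.22 (adjusted p = 0.0881). Against the 3 mesenchyme arrays titled LCM, 4 were called, namely Adam19, Adamts12, Adamts3 and Timp1, which were also called without any single array. With the probe set of largest variance, Timp3 was at -1.26 (adjusted p = 0.338). Adam33 has only 1 measured probe set, and in that fit it was at the same -1.44 with an adjusted p of 0.055. In the 1 title date code that holds both tissues, with 1 array of each, the 12 differences had the same sign as over all arrays, and all 12 were called with the date code as a fixed term, arrays without a code being taken as 1 level. Most arrays of both tissues have no date in the title and fall in that level, so this fit hardly checks for a batch here. Arrays were then left out one at a time. Adam33 was no longer called without metanephric mesenchyme replicates 1, 2, 4, 5, 7 or 8, or ureteric bud replicates 1, 2, 3 or 4 (log2 -1.57 to -1.32, adjusted p up to 0.151). Adamts20 was no longer called without metanephric mesenchyme replicates 3 or 8, or ureteric bud replicates 1, 2, 3 or 4 (log2 -3.20 to -2.87, adjusted p up to 0.0848). Adamts16 was no longer called without metanephric mesenchyme replicate 8, or ureteric bud replicates 1, 3 or 4 (log2 1.74 to 2.01, adjusted p up to 0.0897). Adam23 was no longer called without ureteric bud replicates 2 or 4 (log2 -1.73 to -1.47, adjusted p up to 0.0743). Adamts4 was no longer called without ureteric bud replicates 2 or 4 (log2 -2.24 to -1.89, adjusted p up to 0.074). Timp3 was no longer called without ureteric bud replicates 1 or 3 (log2 -1.93 to -1.38, adjusted p up to 0.114). Mmp23 was no longer called without ureteric bud replicate 2 (log2 -2.58 to -2.18, adjusted p up to 0.0584).

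The wider set of pericellular proteolysis genes, a list made with earlier results of these data known, had 34 of 37 genes measured. Of these, 6 rose and 6 fell in the bud (median -0.03). The epithelial membrane serine protease gene St14 (matriptase) had a change of 4.86 (SE 0.65, adjusted p = 1.68e-06), Tmprss2 one of 4.27, and the genes for the hepatocyte growth factor activator inhibitors Spint1 and Spint2 changes of 3.43 and 3.13. Dpp4, a dipeptidyl peptidase of epithelial surfaces, and Tfpi2, an inhibitor of serine proteases, were the others that rose. The plasminogen activator gene Plat was at -4.497 (SE 0.39, adjusted p = 2.63e-10), the fibroblast protease gene Fap at -4.25, Pcolce, which enhances procollagen processing, at -3.25 and Reck, a membrane inhibitor of Mmp enzymes, at -1.67, and all fell. Of 20 matrix substrate genes, 7 fell and 0 rose (median -0.63; limma), among them Col3a1 at -5.47 and Vcan, which encodes versican, at -4.91. Epithelial and interstitial marker levels moved with this comparison (13.87 to 14.51 for the epithelial list in the bud, against 7.84 to 11.86 in the mesenchyme, and 7.46 to 8.82 for the interstitium list in the bud, against 11.94 to 12.81 in the mesenchyme), as did the 7 macrophage markers (7.14 to 7.29 in the bud, against 8.14 to 10.30 in the mesenchyme). The mural list was at 8.17 to 8.59 in the bud, against 11.25 to 13.18 in the mesenchyme, with 4 of 4 markers called lower. The erythroid list was at 9.32 to 11.52 in the bud, against 12.38 to 14.76 in the mesenchyme (3 of 4 lower), and the endothelial list at 7.90 to 8.73 in the bud, against 8.55 to 10.76 in the mesenchyme (3 of 6 lower). The list of immediate early and stress genes was at 11.87 to 12.69 in the bud, against 9.60 to 12.61 in the mesenchyme, with 2 of 8 called higher. Their part in the result was not tested.

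**Figure D4:**
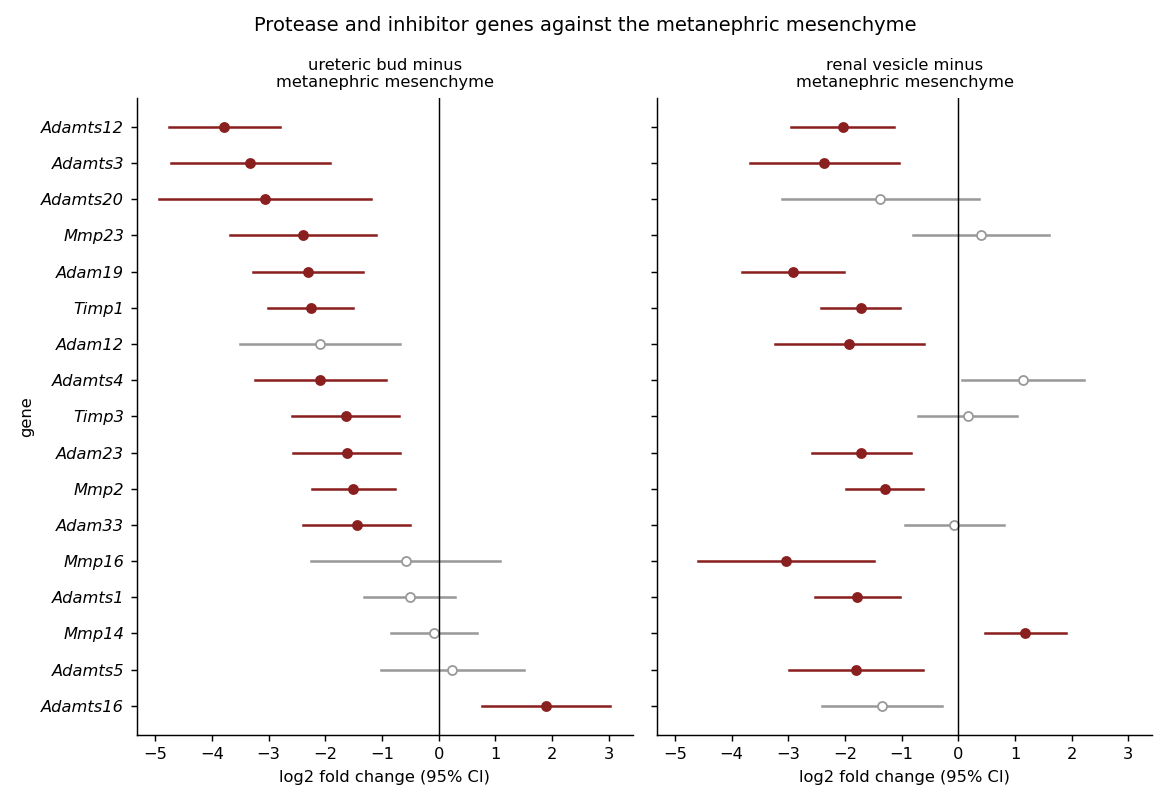
Log2 fold change with 95% confidence interval of the 17 genes called in either comparison, for the ureteric bud (left) and the renal vesicle (right) against the same 8 mesenchyme arrays. Filled red points were called and open grey points were not; Adamts12, Adamts3, Adam19, Timp1, Adam23 and Mmp2 lie left of 0 in both, and the shared mesenchyme arrays tie the panels to each other.

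The renal vesicle of E12.5 was compared with the mesenchyme of E11.5 from which it forms, so that stage and tissue change together. Of the 46 genes, 10 fell in the vesicle (21.7%, against a background of 7.98%) and 1 rose (2.17%, background 3.87%). The median log2 change was -0.16 over the 46 genes and -0.06 over all genes. The mesenchyme arrays are those used for the ureteric bud, so the 2 comparisons are not independent.

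Timp1 was at 10.38, 9.995, 9.29, 8.66 and 9.44 in the vesicle arrays, against 10.81 to 12.06 with a median of 11.26 in the mesenchyme arrays. All vesicle arrays were lower, and Timp1 fell by 1.72 (SE 0.34, adjusted p = 0.000793). Timp3 was not called at 0.16 (SE 0.43, adjusted p = 0.849). Mmp2 was at 13.45, 13.37, 13.53, 14.23 and 14.51 in the vesicle, against 14.57 to 15.53 with a median of 15.17 in the mesenchyme. The ranges nearly met without overlap, and Mmp2 fell by 1.30 (SE 0.33, adjusted p = 0.00717). Mmp16, a membrane-type Mmp, was at 5.86, 11.02, 10.47, 6.41 and 5.599 in the vesicle, against 9.73 to 11.41 with a median of 11.14 in the mesenchyme. Vesicle replicates 2 and 3 lay within the mesenchyme range while the other vesicle arrays were near background, and Mmp16 fell by 3.05 (SE 0.76, adjusted p = 0.00613). Mmp14, the membrane-type enzyme that activates Mmp2, was the gene that rose. It was at 12.03, 11.94, 11.09, 10.15 and 9.73 in the vesicle, against 9.27 to 10.23 with a median of 9.80 in the mesenchyme. Vesicle replicates 1 to 3 were above all mesenchyme arrays and replicates 4 and 5 were within their range, and Mmp14 rose by 1.18 (SE 0.35, adjusted p = 0.019). Its other measured probe set did not go the same way.

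Adam19 was at 6.28, 8.77, 9.94, 8.47 and 8.27 in the vesicle, against 10.64 to 11.81 with a median of 11.29 in the mesenchyme. No vesicle array reached the mesenchyme range, and Adam19 fell by 2.91 (SE 0.44, adjusted p = 3.16e-05). Adam23 fell by 1.71 (SE 0.43, adjusted p = 0.00645) with overlap, and its other 2 probe sets did not go the same way. Adam12, a protease of muscle and growing mesenchyme, was at 5.97, 8.21, 9.58, 9.06 and 9.98 in the vesicle, against 9.93 to 11.34 with a median of 10.57 in the mesenchyme. Vesicle replicate 1 was far below the others and replicate 5 just reached the mesenchyme range, and Adam12 fell by 1.93 (SE 0.65, adjusted p = 0.0399).

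Adamts1, the first described member of its family, was at 10.12, 10.71, 10.88, 11.34 and 11.96 in the vesicle, against 11.88 to 13.54 with a median of 12.75 in the mesenchyme. The ranges touched only through vesicle replicate 5, and Adamts1 fell by 1.78 (SE 0.37, adjusted p = 0.00113). In the mesenchyme it was at 12.97 to 13.54 in the 4 arrays titled dissection or collagenase and at 12.24 to 12.54 in the 3 titled LCM, and against these 3 alone it was not called, at -1.35 (adjusted p = 0.117). Adamts12 was at 8.26, 11.02, 10.86, 10.63 and 8.95 in the vesicle, against 11.10 to 12.60 with a median of 12.06 in the mesenchyme. The ranges nearly met without overlap, and Adamts12 fell by 2.04 (SE 0.45, adjusted p = 0.00205). Adamts5, an aggrecanase, was at 7.63, 7.16, 8.16, 7.81 and 7.51 in the vesicle, against 8.49 to 10.03 with a median of 9.82 in the mesenchyme. It was lower in every vesicle array and fell by 1.81 (SE 0.58, adjusted p = 0.0313). Adamts3 fell by 2.36 (SE 0.64, adjusted p = 0.0113) with overlap. Adamts4 and Adamts16 were not called, at 1.14 and -1.35.

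Against the 3 mesenchyme arrays titled LCM, 2 of the genes were called, Adam19 and Timp1. Against the 4 titled dissection or collagenase, 9 were called, without Adam12 and Mmp14. No title date code holds arrays of both tissues, and those of the vesicle hold no other component, so that a fit with the date code as a fixed term rests on 1 vesicle array, replicate 3, which has no code. In that fit 2 of the 11 genes were called, Mmp2 at -1.73 (adjusted p = 0.0377) and Timp1 at -2.04 (adjusted p = 0.0146), and 9 were not. Adamts3 was then at -0.11 (adjusted p = 0.967), Mmp16 at -0.47 (adjusted p = 0.874), Adam23 at -0.58 (adjusted p = 0.642), Adam12 at -0.84 (adjusted p = 0.663), Adamts12 at -1.11 (adjusted p = 0.473) and Adam19 at -1.28 (adjusted p = 0.326). Adamts5 was at -1.29 (adjusted p = 0.545), Adamts1 at -1.82 (adjusted p = 0.0743) and Mmp14 at 1.27 (adjusted p = 0.097). With the probe set of largest variance Adamts5 was at -0.80 (adjusted p = 0.593). Adam12 was no longer called without renal vesicle replicates 1, 2 or 4, or metanephric mesenchyme replicates 1, 3, 6, 7 or 8 (log2 -2.28 to -1.28, adjusted p up to 0.209). Adamts5 was no longer called without renal vesicle replicates 1, 2, 4 or 5, or metanephric mesenchyme replicates 3, 5, 6 or 7 (log2 -1.95 to -1.69, adjusted p up to 0.0668). Adamts3 was no longer called without renal vesicle replicate 1 (log2 -2.93 to -1.95, adjusted p up to 0.0588). Mmp14 was no longer called without renal vesicle replicates 1 or 2 (log2 0.92 to 1.498, adjusted p up to 0.097). Of the 34 pericellular genes measured, 5 rose and 2 fell (median -0.18). Spint2 was at 2.62 (SE 0.38, adjusted p = 1.48e-05) and Dpp4 at 3.21, while Cd44, the hyaluronan receptor gene, was at -2.92. Of the 20 substrate genes, 6 fell and 1 rose (median -0.52), the rise being Col4a1, a basement membrane collagen gene, at 1.23 (SE 0.20, adjusted p = 5.26e-05). The interstitium list was at 9.46 to 12.504 in the vesicle, against 11.94 to 12.81 in the mesenchyme, and the immediate early list at 9.41 to 9.70 in the vesicle, against 9.60 to 12.61 in the mesenchyme. The erythroid list was at 10.15 to 11.97 in the vesicle, against 12.38 to 14.76 in the mesenchyme (3 of 4 markers lower). The mural list had 2 of 4, the endothelial list 2 of 6 and the macrophage list 2 of 7 markers lower, while 6 of 6 vesicle markers were higher. Their part in these changes was not tested.

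In the S-shaped body of E15.5, set against the renal vesicle of E12.5, 3 of the 46 genes rose (6.52%, background 3.27%) and 2 fell (4.35%, background 1.72%), and the median log2 change was 0.04 against -0.04 over all genes. Adamts16 was at 11.65, 10.67, 11.54 and 11.14 in the S-shaped body, against 8.31, 7.85, 10.84, 7.46 and 5.97 in the vesicle. Vesicle replicate 3 reached the S-shaped range and the other vesicle arrays were far lower, and Adamts16 rose by 3.16 (SE 0.61, adjusted p = 0.00145). Vesicle replicate 3 had the highest interstitium list of the vesicles, 12.504. Its ureteric epithelium list was at 10.96, below the 11.59 of vesicle replicate 2. The part of these lists in the level of Adamts16 was not tested. The gene's other probe set did not go the same way, and with the date code in the titles as a fixed term its value turned to -0.12 (adjusted p = 0.977). Timp3 was at 11.87, 11.95, 14.01 and 12.47 in the S-shaped body, against 11.71, 10.71, 11.80, 10.43 and 9.92 in the vesicle. The groups did not overlap, with replicate 3 of the S-shaped body highest, and Timp3 rose by 1.66 (SE 0.51, adjusted p = 0.049). Adamts5 was at 7.63, 9.68, 12.11 and 10.66 in the S-shaped body, against 7.63, 7.16, 8.16, 7.81 and 7.51 in the vesicle. S-shaped replicate 1 lay within the vesicle range and replicate 3 was again the highest, and Adamts5 rose by 2.37 (SE 0.68, adjusted p = 0.0354). Adamts18 was at 5.63, 7.22, 5.62 and 5.74 in the S-shaped body, against 10.12, 10.51, 9.06, 5.49 and 7.77 in the vesicle. The vesicle arrays were spread widely and overlapped the S-shaped arrays, and Adamts18 fell by 2.54 (SE 0.71, adjusted p = 0.0304). Adamts4 was at 9.63, 9.82, 7.96 and 8.81 in the S-shaped body, against 11.97, 9.67, 11.04, 11.29 and 11.54 in the vesicle. The ranges met at one vesicle array, and Adamts4 fell by 2.05 (SE 0.62, adjusted p = 0.0477). No other probe set of Adamts18 or Adamts4 went the same way.

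Without the libraries that stand apart (S-shaped body replicate 3 and renal corpuscle replicate 4), 1 of these 5 genes was called: Adamts16 at 3.07 (adjusted p = 0.00724). Timp3 was then at 1.18 (adjusted p = 0.251) and Adamts5 at 1.67 (adjusted p = 0.178). No title date code holds arrays of both components, and with the date code as a fixed term, a fit that rests on S-shaped body replicate 2 and vesicle replicate 3, none of the 5 was called (9 of the 46 genes had an unadjusted p under 0.05 in the fit without it). Adamts18 was no longer called without renal vesicle replicates 1, 2 or 3, or S-shaped body replicates 1, 3 or 4 (log2 -3.32 to -2.06, adjusted p up to 0.101). Adamts4 was no longer called without renal vesicle replicates 1, 3, 4 or 5, or S-shaped body replicates 1, 3 or 4 (log2 -2.40 to -1.68, adjusted p up to 0.2). Adamts5 was no longer called without renal vesicle replicates 1, 2, 4 or 5, or S-shaped body replicates 3 or 4 (log2 1.67 to 3.16, adjusted p up to 0.221). Timp3 was no longer called without renal vesicle replicates 2, 4 or 5, or S-shaped body replicates 3 or 4 (log2 1.18 to 1.90, adjusted p up to 0.269). Of the pericellular genes, 3 rose and 1 fell (median 0.35): Plau, which encodes urokinase, was at 3.81 (SE 0.54, adjusted p = 2.12e-05), the meprin gene Mep1a at 3.32 and the neprilysin gene Mme at 2.06. Of the substrates 2 rose, Nid1 and Col3a1, and 0 fell (median 1.09; limma). The podocyte list was at 10.71 to 14.93 in the S-shaped body, against 7.18 to 8.21 in the vesicle, with 3 of 4 markers called higher. The proximal tubule list was at 9.25 to 12.65 in the S-shaped body, against 6.94 to 8.42 in the vesicle (3 of 6 higher), the mural list at 11.88 to 13.52, against 9.85 to 12.12 in the vesicle (2 of 4 higher), and the endothelial list at 9.45 to 11.29, against 7.83 to 9.66 in the vesicle (1 of 6 higher). S-shaped body replicate 3 was the highest S-shaped array in each of these 4 lists, and their part in the rises of Timp3 and Adamts5 was not tested.

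Within E15.5, each of the 6 components was set against the mean of the other 5. These comparisons share arrays, since each component serves as a control for the others. They are given side by side and not compared with each other.

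In the medullary interstitium, 4 genes rose (8.70%, background 3.48%) and 1 fell (2.17%, background 2.64%). Mmp16 was at 11.62, 12.05, 13.32 and 13.17 in the interstitium, against 6.48 to 11.90 with a median of 9.56 in the 16 other arrays. The interstitium arrays were at the top, with 1 corpuscle array reaching their range, and Mmp16 rose by 3.12 (SE 0.75, adjusted p = 0.00761). Adamts20 was at 13.27, 13.19, 13.16 and 11.99 in the interstitium, against 5.59 to 12.88 with a median of 9.97 in the others. The 3 ureteric tip arrays and 1 proximal tubule array reached the interstitium range, and Adamts20 rose by 2.88 (SE 0.84, adjusted p = 0.031). Adamts15 was at 10.14, 10.51, 11.24 and 11.45 in the interstitium, against 7.11 to 12.41 with a median of 8.49 in the others. Both proximal tubule arrays and renal corpuscle replicate 4 were within or above the interstitium range, and Adamts15 rose by 1.85 (SE 0.48, adjusted p = 0.0133). Adamts3 was at 9.0, 10.75, 10.14 and 10.23 in the interstitium, against 5.55 to 10.45 with a median of 7.99 in the others. It was reached by 4 other arrays, among them S-shaped body replicates 1 and 2, and rose by 2.04 (SE 0.64, adjusted p = 0.0448). Adamts16 was at 9.78, 8.32, 7.34 and 8.39 in the interstitium, against 8.54 to 11.97 with a median of 11.19 in the others. Of the other arrays 2 from the collecting duct and 1 from the corpuscle were in the interstitium range, and it fell by 2.38 (SE 0.51, adjusted p = 0.00295). Adamts16 was still called under all alternatives run and without any single array, each time with the same probe set. Its other measured probe set was at -0.06 here (limma, adjusted p = 0.973).

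Adam12 and Adam19 in the interstitium were not called, at 1.88 (SE 0.64, adjusted p = 0.0692) and 1.22 (SE 0.44, adjusted p = 0.0852), nor was Mmp11 at 1.22. Within the 3 title date codes that allow it, 14 of 15 differences had the same sign as over all arrays, the exception being Adamts20 in 1 code at -0.89. With the date code as a fixed term 3 of the 5 genes were no longer called: Mmp16 at 2.36 (adjusted p = 0.12), Adamts15 at 1.21 (adjusted p = 0.154) and Adamts3 at 1.15 (adjusted p = 0.475). Mmp16 was no longer called without medullary interstitium replicates 3 or 4 (log2 2.86 to 3.43, adjusted p up to 0.0604). Adamts15 was no longer called without medullary interstitium replicates 3 or 4 (log2 1.63 to 2.08, adjusted p up to 0.0871). Adamts20 was no longer called without proximal tubule replicate 1, or medullary interstitium replicates 1, 2, 3 or 4 (log2 2.42 to 3.34, adjusted p up to 0.116). Adamts3 was no longer called without renal corpuscle replicate 3, proximal tubule replicate 1, medullary collecting duct replicates 2 or 3, ureteric tip replicates 2 or 3, S-shaped body replicate 4, or medullary interstitium replicates 2, 3 or 4 (log2 1.80 to 2.38, adjusted p up to 0.152). Of the 20 substrate genes, 10 rose and 0 fell (median 1.57, against 0.01 over all genes; limma), with Lum, which encodes lumican, at 4.13 (SE 0.75, adjusted p = 0.000447), Thbs2, a thrombospondin gene, at 3.82 and Dcn, the decorin gene, at 3.14. Of the pericellular genes, 2 rose and 5 fell (median 0.07): Reck was at 1.87 and Plau at 1.74, while St14, Spint1, Spint2, Tmprss2 and Dpp4 fell. The interstitium marker list was at 14.02 to 14.52 in this component and at 10.62 to 14.01 in the others, and the macrophage list at 9.38 to 10.63, against 7.41 to 10.61 in the others. The epithelial list was at 10.32 to 12.96, with replicate 1 highest, against 10.23 to 14.87 in the others (2 of 5 markers lower). The collecting duct list was at 8.42 to 9.24, against 8.13 to 13.20 in the others (2 of 5 lower). Of the proximal tubule and renal vesicle markers, 1 of 6 each was lower. Of the mural markers 1 of 4 was higher, and of the immediate early and stress genes 1 of 8. Their part in these values was not tested.

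In the renal corpuscle, 5 genes rose (10.9%, background 2.01%) and 1 fell (2.17%, background 3.4%). Adamts5 was at 13.22, 12.72, 13.39 and 11.17 in the corpuscle, against 7.53 to 12.11 with a median of 9.65 in the other arrays. The overlap came from corpuscle replicate 4, and Adamts5 rose by 2.999 (SE 0.57, adjusted p = 0.00139). Timp3 was at 14.32, 13.14, 14.04 and 13.65 in the corpuscle, against 10.17 to 14.01 with a median of 12.02 in the others. Among the other arrays only S-shaped body replicate 3, as labelled, reached the corpuscle range, and Timp3 rose by 2.06 (SE 0.43, adjusted p = 0.00299). Mmp23 was at 14.03, 11.97, 15.37 and 11.09 in the corpuscle, against 7.09 to 14.43 with a median of 11.56 in the others. Corpuscle replicates 1 and 3 and S-shaped replicate 3 were high and the remaining corpuscles were not, and Mmp23 rose by 2.18 (SE 0.58, adjusted p = 0.0213). Mmp9, gelatinase B, was at 10.997, 8.12, 9.26 and 8.35 in the corpuscle, against 6.07 to 9.71 with a median of 7.73 in the others. Replicate 1 was above all other arrays, and Mmp9 rose by 1.53 (SE 0.46, adjusted p = 0.0389). Adamts9, a versican-cutting protease, was at 14.03, 13.70, 14.54 and 13.77 in the corpuscle, against 10.92 to 13.87 with a median of 12.77 in the others. The ranges overlapped slightly, and Adamts9 rose by 1.15 (SE 0.31, adjusted p = 0.0211). Mmp11, stromelysin 3, was at 10.29, 10.56, 5.80 and 9.66 in the corpuscle, against 9.68 to 12.20 with a median of 11.23 in the others. Replicate 3 was near background and the rest lay at the lower end of the other arrays, and Mmp11 fell by 1.94 (SE 0.49, adjusted p = 0.0147).

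Without both libraries that stand apart, 8 genes were called in the corpuscle, these 6 among them: Adamts5 at 3.62 (adjusted p = 8.62e-05), Mmp23 at 3.02 (adjusted p = 0.000487), Timp3 at 2.201 (adjusted p = 0.00223), Mmp9 at 1.87 (adjusted p = 0.0168), Adamts9 at 1.16 (adjusted p = 0.0248) and Mmp11 at -2.14 (adjusted p = 0.0145). The share of all genes called without these libraries is not given here. With array weights 1 gene was called, and with the probe set of largest variance Adamts5 was at 1.18 (adjusted p = 0.443) and Adamts9 at -0.30 (adjusted p = 0.777). Within the 3 title date codes that allow it, 16 of 18 differences had the same sign, the exceptions being Mmp23 at -0.91 and Mmp9 at -0.42 in 1 code. With the date code as a fixed term 4 of the 6 genes were no longer called: Adamts5 at 2.44 (adjusted p = 0.0901), Mmp9 at 1.51 (adjusted p = 0.134), Adamts9 at 0.59 (adjusted p = 0.329) and Mmp11 at -1.85 (adjusted p = 0.0656). Mmp23 was no longer called without renal corpuscle replicates 1 or 3 (log2 1.43 to 2.86, adjusted p up to 0.199). Mmp9 was no longer called without renal corpuscle replicates 1 or 3, medullary collecting duct replicates 2 or 3, or ureteric tip replicate 3 (log2 0.92 to 1.88, adjusted p up to 0.273). Adamts9 was no longer called without renal corpuscle replicates 1 or 3 (log2 0.97 to 1.26, adjusted p up to 0.114). Mmp11 was no longer called without renal corpuscle replicate 3 (log2 -2.43 to -0.84, adjusted p up to 0.243). The podocyte list was at 10.70 to 15.28 in the corpuscles, with 4 of 4 measured markers called higher. It was at 10.71 to 14.93 in the S-shaped bodies and at most 11.03 in the other E15.5 components. The endothelial list was at 9.45 to 12.07 in the corpuscles, against 7.78 to 11.29 in the others (2 of 6 higher). The mural list was at 11.86 to 13.996, against 9.73 to 13.52 (0 of 4 higher). Replicate 1 was the highest corpuscle for both of these lists, Mmp9 and Timp3. Replicate 3 was highest for the podocyte list, Adamts5, Mmp23 and Adamts9. Lower were 3 of 5 ureteric epithelium, 2 of 5 epithelial, 2 of 5 collecting duct and 2 of 6 proximal tubule markers. The part of these lists was not tested. Of the pericellular genes, Plat at 2.83 (SE 0.36, adjusted p = 7.53e-06) and the proprotein convertase gene Pcsk6 at 1.65 rose and Spint1 fell (median -0.12). No substrate gene was called of 20 (median -0.12; limma).

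In the proximal tubule, with 2 arrays, 3 genes rose (6.52%, background 9.14%) and 2 fell (4.35%, background 6.08%), both below the share of all genes. The median change of all genes was 0.11 here after quantile normalization and -0.095 with the deposited scaling alone, so changes are relative to that. Adamts15 was at 12.41 and 10.23 in the tubule, against 7.11 to 11.45 with a median of 8.61 in the other arrays. Replicate 1 was above all others and replicate 2 was not, and Adamts15 rose by 2.44 (SE 0.63, adjusted p = 0.00653). Adamts1 was at 13.51 and 11.58 in the tubule, against 9.43 to 12.21 with a median of 11.23 in the others. Again replicate 1 alone lay above the others, and Adamts1 rose by 1.66 (SE 0.48, adjusted p = 0.0155). Adam15, a disintegrin of epithelia and vessels, was at 11.66 and 12.55 in the tubule, against 9.94 to 12.01 with a median of 10.52 in the others. Replicate 2 was highest, and Adam15 rose by 1.41 (SE 0.47, adjusted p = 0.0359). Of its 2 other measured probe sets, 1 was called at 1.68 and 1 went the other way, at -0.59 (limma, adjusted p = 0.512). Mmp14 was at 9.03 and 9.16 in the tubule, against 9.61 to 11.49 with a median of 10.56 in the others. Both tubule arrays were below all others, and Mmp14 fell by 1.41 (SE 0.46, adjusted p = 0.0311). Mmp9 was at 6.39 and 6.16 in the tubule, against 6.07 to 10.997 with a median of 8.41 in the others, at the lower end of their range, and fell by 1.96 (SE 0.60, adjusted p = 0.0226). Adam10 had an adjusted p of 0.0179 but a log2 change of -0.99, short of the size required.

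Adamts15 was no longer called without proximal tubule replicate 1 (log2 1.35 to 3.52, adjusted p up to 0.338). Adamts1 was no longer called without proximal tubule replicate 1 (log2 0.70 to 2.63, adjusted p up to 0.529). Adam15 was no longer called without proximal tubule replicates 1 or 2 (log2 0.97 to 1.85, adjusted p up to 0.34). Mmp14 was no longer called without proximal tubule replicates 1 or 2 (log2 -1.47 to -1.33, adjusted p up to 0.19). Mmp9 was no longer called without proximal tubule replicates 1 or 2 (log2 -2.08 to -1.84, adjusted p up to 0.145). With array weights 0 of the 46 genes were called (10 had an unadjusted p under 0.05 in the limma fit without weights). The title date codes of the 2 tubule arrays differ, and 1 of them also holds other E15.5 components. Within it the 5 differences had the same sign. With the date code as a fixed term 4 of the 5 genes were no longer called: Adamts15 at 1.74 (adjusted p = 0.0562), Adamts1 at 1.45 (adjusted p = 0.0649), Mmp14 at -1.12 (adjusted p = 0.055) and Mmp9 at -1.30 (adjusted p = 0.225). Mmp2 in the 2 tubule arrays was at 11.74 and 14.79 and Adamts20 at 7.49 and 12.11 in replicates 1 and 2, so the arrays stood far apart for these genes. Of the pericellular genes, 8 rose and 2 fell (median 1.07): the brush border meprin gene Mep1a was at 5.88 (SE 0.89, adjusted p = 9.74e-06), its partner Mep1b at 7.59 (SE 1.28, adjusted p = 5.34e-05), the cathepsin genes Ctsb and Ctsl at 1.49 and 1.09, and Plau at -4.07. Of the substrates, Col4a2 rose and Thbs1 fell (median 0.12). The proximal tubule list was at 14.73 and 13.59 in tubule replicates 1 and 2, against 7.69 to 12.65 in the other arrays, with 6 of 6 markers called higher. The podocyte list was at 9.02 and 8.93, against 7.44 to 15.28 in the others (2 of 4 lower). The macrophage list was at 10.61 and 8.04, against 7.41 to 10.63 in the others (1 of 7 higher). Replicate 1 was the higher one for Adamts1 and Adamts15. It was also the higher one for the macrophage, proximal tubule, S-shaped body, podocyte, endothelial, collecting duct, epithelial, erythroid and immediate early lists. Replicate 2 was higher for the progenitor, ureteric epithelium, renal vesicle, mural and interstitium lists. Their part in these values was not tested.

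In the ureteric tip, 0 genes rose (0%, background 0.745%) and 2 fell (4.35%, background 0.859%), while 13 had an unadjusted p under 0.05. Mmp23 was at 8.94, 7.09 and 9.30 in the tip, against 8.94 to 15.37 with a median of 11.96 in the other arrays. Tip arrays were low, with 1 proximal tubule array reaching their range, and Mmp23 fell by 3.42 (SE 0.65, adjusted p = 0.00361). Timp3 was at 10.17, 10.45 and 10.56 in the tip, against 10.34 to 14.32 with a median of 12.43 in the others. Of the other arrays only medullary collecting duct replicate 1 came down to the tip's level, and Timp3 fell by 2.01 (SE 0.48, adjusted p = 0.0235). Within the 3 title date codes that allow it, all 6 differences had the same sign. With the date code as a fixed term Timp3 was no longer called, at -1.98 (adjusted p = 0.0979), nor was it with the probe set of largest variance, at -1.20 (adjusted p = 0.371). Mmp23 was no longer called without ureteric tip replicate 2 (log2 -3.85 to -2.74, adjusted p up to 0.158). Timp3 was no longer called without ureteric tip replicates 1, 2 or 3 (log2 -2.09 to -1.90, adjusted p up to 0.169). With array weights 12 genes were called, a count given without the share of all genes called under those weights. Adamts18 and Adamts20 were higher in the tip without passing the threshold, at 2.21 (SE 0.67, adjusted p = 0.0789) and 2.45 (SE 0.94, adjusted p = 0.193), as was Adamts16 at 1.27 (SE 0.57, adjusted p = 0.286). Of the pericellular genes, Plat fell and 0 rose (median -0.38), and of the substrates Col4a2 fell and 0 rose (median -0.43; limma). The ureteric epithelium list was at 13.43 to 14.16 in the tip, against 7.01 to 12.54 in the other arrays, with 5 of 5 markers called higher. The podocyte list was at 7.44 to 8.92 in the tip, against 8.69 to 15.28 in the others (1 of 4 lower), the endothelial list at 7.78 to 8.87, against 7.79 to 12.07 in the others (1 of 6 lower), and the mural list at 9.73 to 11.08, against 10.18 to 13.996 in the others (0 of 4 lower). Their part in the falls of Timp3 and Mmp23 was not tested.

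**Figure D5:**
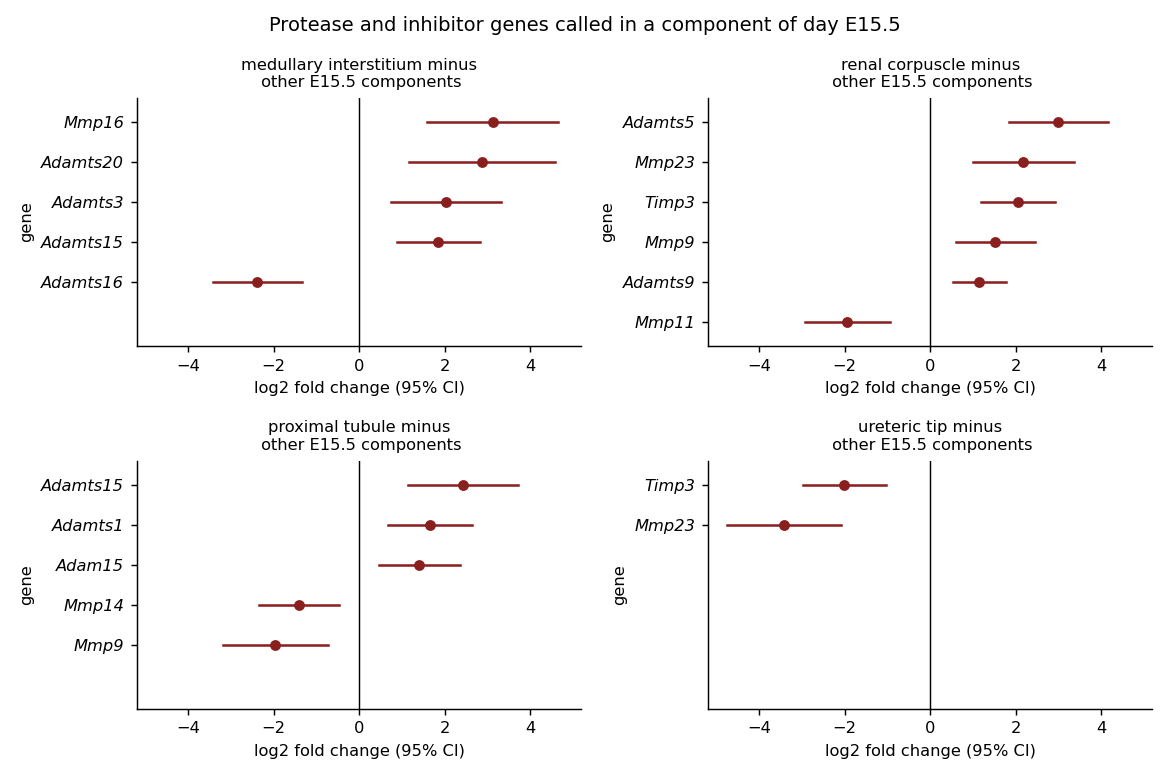
Log2 fold change with 95% confidence interval for each gene called in the medullary interstitium, renal corpuscle, proximal tubule or ureteric tip against the mean of the other 5 components of E15.5. Adamts5 at 3.00 and Mmp16 at 3.12 are the farthest right and Mmp23 in the tip at -3.42 the farthest left; the panels share arrays.

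No gene was called in the S-shaped body or the medullary collecting duct against the other components of E15.5, nor between the ureteric tip and the medullary collecting duct. In the S-shaped body 4 genes had an unadjusted p under 0.05 by limma, the smallest adjusted p being 0.116 (background 0.713% higher and 0.745% lower). Mmp16 was there at -2.39 (SE 0.75, adjusted p = 0.116) and Timp2 at 0.57 (SE 0.25, adjusted p = 0.31). Without renal corpuscle replicate 3, 1 gene was called. In the medullary collecting duct 7 genes had an unadjusted p under 0.05, the smallest adjusted p being 0.0711 (background 1.38% higher and 0.522% lower). Timp1 was at -1.28 (SE 0.38, adjusted p = 0.0711), Timp3 at -1.39 (SE 0.48, adjusted p = 0.145) and Adamts9 at -1.01 (SE 0.34, adjusted p = 0.135). With array weights 3 genes were called, with the title date code as a fixed term 4, and 1 without medullary collecting duct replicate 1. The share of all genes under each of these settings is not given here. Between ureteric tip and medullary collecting duct, 4 genes had an unadjusted p under 0.05 and the smallest adjusted p was 0.159 (background 0.121% higher and 0.236% lower). Mmp23 was at 8.94, 7.09 and 9.30 in the tip, against 11.77, 12.16 and 10.54 in the collecting duct. The groups did not overlap, and the change was -3.05 (SE 0.85, adjusted p = 0.159), with a 95% interval of -4.76 to -1.33. Adamts16, Adamts18 and Adamts20 were at 2.24, 1.92 and 2.83, none of them called. With array weights 4 genes were called and with the date code as a fixed term 1, again without the share of all genes. In the S-shaped body 2 pericellular genes rose, Plau and Plat, and in the medullary collecting duct Spint1 rose, while no substrate gene was called in either by limma.

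Of the general sheddases, Adam10, which cuts Notch receptors, passed the F test (F = 7.91, adjusted p = 5.62e-05), with means of 14.52 ± 0.46 in the medullary interstitium (n = 4) and 12.71 ± 0.27 in the ureteric bud (n = 4) as the extremes, a range of 1.81. Adam17, which releases tumour necrosis factor and ligands of the epidermal growth factor receptor, did not (adjusted p = 0.538), with means of 12.63 ± 0.20 in the ureteric bud (n = 4) and 11.69 ± 0.15 in the proximal tubule (n = 2) as the extremes. Adam22 varied (adjusted p = 0.000690) between 11.02 ± 0.44 in the ureteric bud (n = 4) and 7.63 ± 1.20 in the renal corpuscle (n = 4) without being called in a comparison. In all, 23 of the 46 genes (50%) were called in at least 1 of the 10 comparisons, against a background of 37% of all genes, and 23 in none. Timp3 was called in 4 comparisons, and Mmp23, Adamts3, Adamts5 and Adamts16 in 3 each. Of the 46 called differences, 31 have another measured probe set, which gave 49 readings. A probe set was counted anew in each comparison in which its gene was called. Of these readings 39 went the same way, 11 were called so and 0 were called the opposite way by limma. The comparisons share arrays, so the readings are not independent.

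The 22 genes that did not pass the F test were Adam1b, Adam1a, Adam4, Adam5, Adam8, Adam9, Adam11, Adam17, Adam21, Adam33 and Adam34 among the Adam genes, Adamts6, Adamts7, Adamts8 and Adamts10 among the Adamts genes, Mmp7, Mmp10, Mmp17, Mmp19 and Mmp24 among the Mmp genes, and Timp2 and Timp4. The nearest to the threshold was Adam1b (adjusted p = 0.0528), followed by Adam8, a sheddase of leukocytes (adjusted p = 0.0758), and Mmp24, a membrane-type enzyme of the nervous system (adjusted p = 0.0798). Adam33 was called in the ureteric bud comparison without passing the F test. Adam9, a widely expressed sheddase, had component means within 0.73 of each other, and Mmp7, matrilysin, had an adjusted p of 0.903. A p that misses the threshold does not show that the components were alike, and several of these genes were read near background: Mmp10, Mmp19 and Mmp7 were above the pooled median in 3, 3 and 6 of 37 arrays.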

How the data were processed

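Affymetrix arrays with 45101 probe sets were read for 37 pooled samples. The deposited values are signal intensity per probe set from GCOS, per the submitters' processing notes. On the values themselves, each array's trimmed mean was 1500.01 or 1500.02, so the authors scaled the arrays globally, and the median signal intensity ran from 127 to 334. Detection calls and the software version are not given in the sources used here, so probe sets could not be set against background on each array.

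The offset 34.62, the 20th percentile of all values, was added before log2, and arrays were quantile normalized. Fold changes are on this log2(signal + offset) scale, which understates changes of dim genes. Of the probe sets, 34945 had 1 gene symbol in the platform table, 932 several and 9160 none, with 64 controls left out. The probe set of highest mean stood for a gene. limma 3.58.1 (R 4.3.3) fitted 9 component means over 37 arrays with an intensity trend (28 residual degrees of freedom, prior 7.35). Tests are two-sided, with Benjamini-Hochberg adjustment over 15709 genes for each of the 10 comparisons and the F test. The fit was tested on simulated data. The number of arrays limits the precision. Figures were drawn with matplotlib 3.10.9.

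The genes, lists, tests and named genes were chosen with earlier results of these data known. Named with values were the 4 Timp genes and a set list of Mmp, Adam and Adamts genes, of which Mmp15 and Adamts2 were not analysed here, every called gene up to the 8 with the largest change in each direction, the 10 genes with the smallest F p-value, and genes of the pericellular proteolysis, matrix substrate and marker lists. Alternatives changed the offset, scaling, filter, probe set, weights and samples, or added the date code or number in the titles.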

Additional observations from a re-analysis of the deposited data

Results flagged for a closer look

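Within groups of 4 to 10 arrays, the highest or lowest array was set against the others of its group by Dixon's test at the 95% level, over 27 of the genes named here. Of 162 groups, 12 (7.41%) held an array that stood apart, where chance gives about 1 in 20.

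High arrays were Adam12 at 11.49 in medullary interstitium replicate 3, with the others at 10.42 to 10.59, and Timp1 at 12.06 in mesenchyme replicate 8, with the others at 10.81 to 11.37. Adamts12 was at 8.80 in ureteric bud replicate 3, with the others at 7.97 to 8.04, and Mmp9 was at 6.94 in ureteric bud replicate 2, with the others at 5.71 to 5.88. Adamts18 was at 7.22 in S-shaped body replicate 2, with the others at 5.62 to 5.74.

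Low arrays were Adamts20 at 5.28 in renal vesicle replicate 3, with the others at 10.68 to 12.12, and Adam17 at 11.04 in the same array, with the others at 12.34 to 12.82. Adamts20 was at 11.99 in medullary interstitium replicate 4, with the others at 13.17 to 13.27, and Timp4 was at 5.65 in medullary interstitium replicate 2, with the others at 6.51 to 6.56. Adamts12 was at 8.42 in renal corpuscle replicate 4, the library low in podocyte markers, with the others at 10.44 to 10.81. Adamts5 was at 9.10 in ureteric bud replicate 2, with the others at 9.86 to 9.95, and Mmp14 was at 9.64 in S-shaped body replicate 4, with the others at 10.54 to 10.59. The causes were not tested.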

How the results depend on the processing

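Of the 46 called differences, 6 were kept under every alternative and without any single array: Adam19, Adamts12, Adamts3 and Timp1 in the ureteric bud, Timp1 in the renal vesicle and Adamts16 in the medullary interstitium. Among these, Adam19 and Adamts16 have another measured probe set, which was not called in the same comparison, at -1.11 and -0.06. Over all alternatives and arrays left out, 1082 of 1310 values kept direction and call, 226 lost the call and 2 turned direction: Adamts9 in the renal corpuscle to -0.30 with the probe set of largest variance, and Adamts16 in the S-shaped body against the renal vesicle to -0.12 with the date code in the titles as a fixed term. The cause was not tested. With the date code as a fixed term 20 of the 46 kept their call, 12 of 12 in the ureteric bud, 2 of 11 in the renal vesicle, 0 of 5 in the S-shaped body against the vesicle, 2 of 5 in the interstitium, 2 of 6 in the corpuscle, 1 of 5 in the tubule and 1 of 2 in the tip. These shares are not alike, since most bud and mesenchyme arrays have no date in the title and were taken as 1 level.

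Counts of called genes moved as follows, here and below without the share of all genes called under the same setting. For the S-shaped body against the renal vesicle (5 called), 3 were called with the offset at the 10th percentile, 3 with global scaling alone, 3 with no filter, 3 with the date code as a random block, 1 with array weights, 1 without both libraries that stand apart, 0 with the date code as a fixed term and 0 with only the components compared. For the medullary interstitium (5), 3 were called with the lower offset and 2 with only these arrays. For the renal corpuscle (6), 1 was called with array weights and 2 with only these arrays. For the proximal tubule (5), 0 were called with array weights, 2 with the date code fixed and 1 with only these arrays. For the ureteric tip (2), 12 were called with array weights, 1 with the largest variance and 1 with only these arrays. For the tip against the medullary collecting duct (0), 4 were called with array weights and 1 with the date code fixed, and for the medullary collecting duct (0), 3 and 4. For the renal vesicle against the mesenchyme (11), 3 were called with the date code fixed and 2 with mesenchyme titled LCM only, and for the ureteric bud (12), 4 with those arrays.

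Leaving out single arrays gave 7 to 12 called genes for the ureteric bud, 7 to 12 for the renal vesicle, 1 to 5 for the S-shaped body against the renal vesicle, 0 for the tip against the medullary collecting duct, 1 to 7 for the medullary interstitium, 2 to 9 for the renal corpuscle, 0 to 1 for the S-shaped body against the other components, 3 to 7 for the proximal tubule, 0 to 3 for the ureteric tip, 0 to 1 for the medullary collecting duct and 24 to 27 for the F test. With 1 proximal tubule array left, that array was assumed to vary like the other components.

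With the number in the titles as a replicate block, 23 genes were called by the F test, 10 in the ureteric bud, 8 in the renal vesicle, 4 in the S-shaped body against the vesicle, 4 in the interstitium, 6 in the corpuscle, 5 in the tubule and 2 in the tip, and 38 of the 46 differences kept their call. Residuals of arrays with the same number had a median correlation of 0.0069 (99 pairs), against -0.0037 (407 pairs) with different numbers. A median over pairs cannot show whether some arrays with the same number share a source. For the date code the medians were 0.0707 (19 pairs) and -0.0077 (232 pairs). Group sizes of 2 to 8 pools limit the precision, and levels near background could not be ordered.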
